A study of Homo sapiens with 72 samples.

Results

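The 100 long non-coding RNA (lncRNA) genes described here had lower levels after 24 h of TGF-β than after 24 h of the receptor inhibitor SB431542 in MDA-MB-231 breast cancer cells, and a small difference at that time in 2 MCF10A lines. They were chosen from 13631 genes that were tested in all 3 lines, out of 96411 in the deposited table. The value behind the choice is D, the mean log2(TPM + 0.5) of the 3 TGF-β libraries at 24 h minus that of the 3 SB431542 libraries at 24 h, less the median of that difference over the genes tested in the line. A gene counted as tested in a line when 3 or more of the line's libraries held it at 0.5 TPM or above. A member had a D of -0.6 or less in MDA-MB-231, with all 3 TGF-β libraries below all 3 SB431542 libraries, and a D within 0.3 of 0 in both MCF10A lines. Of the genes tested in all 3 lines, 157 (1.15%) met every threshold, and the 100 with the most negative D in MDA-MB-231 are the members, numbered 1 to 100 in that order. The members were thus chosen on the 24 h values, which are given below as a description with no test.

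TGF-β is a secreted cytokine that binds a pair of transmembrane serine/threonine kinase receptors, and the activated type I receptor phosphorylates SMAD proteins, which enter the nucleus and raise or lower transcription together with other factors. In normal mammary epithelium the pathway restrains growth, while in advanced breast cancer cells it is known for promoting migration and invasion. lncRNAs are transcripts without a long open reading frame; some act on chromatin, some in the cytoplasm, and most have no known role.

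MDA-MB-231 is an established triple-negative breast cancer line. MCF10A-M1 (M1) is the line labelled as a normal breast cell line, and MCF10A-M2 (M2) comes from it by HA-Ras transformation. After a night in serum-free medium, cells of each line received TGF-β at 5 ng/mL or SB431542 at 10 µM, a small-molecule inhibitor of the type I receptor kinase, for 0, 2, 8 or 24 h, with 3 libraries in each of 24 groups, or 72 libraries. The 0 h samples of the TGF-β arm are the non-stimulated cells. The earliest samples of the SB431542 arm are titled 0 h, while their treatment field reads 0.5 h. The labels name ligand buffer as the vehicle of TGF-β and DMSO as that of SB431542, so the arms differed in agent and vehicle.

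The files give NONCODE gene identifiers without symbols, positions or sequences, so no member's role can be stated, and neither the lines' identity nor the response to TGF-β could be checked on known marker or target genes. Values are TPM, a length-corrected share of the lncRNA reads, and it keeps no read depth. Per library, genes at 0.5 TPM or more numbered 8458 to 16748 (median 13174), and the 10 most abundant genes of a library held 56.7% to 78.8% of its TPM. These are bulk samples, in which fewer cells carrying a transcript and less of it per cell cannot be told apart.

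At 24 h in MDA-MB-231 the members' D ran from -1.97 to -0.70 with a median of -0.82. In M1 it ran from -0.30 to 0.29 (median -0.05) and in M2 from -0.30 to 0.26 (median 0.00). For genes near or below 0.5 TPM this scale understates differences, so a small D there need not mean equal levels. Of the 100 members, 66 to 78 reached 0.5 TPM in the M2 libraries at 24 h, and 87 to 97 in those of M1. Member 6 averaged 0.049 TPM with TGF-β and 0.267 TPM with SB431542 at 24 h in M1, with a D of -0.28. The last members inside the list, 98 to 100, had a D of -0.71, -0.71 and -0.70, and the next genes outside it, ranked 101 to 103, had -0.70, -0.69 and -0.69, so the end of the list is not a gap in the values. All thresholds on MDA-MB-231 alone were met by 820 genes (6.02% of those tested in all 3 lines). Without the median correction, 29.3% of the tested genes had all 3 TGF-β libraries below all 3 SB431542 libraries, and the median of the tested genes was itself lower with TGF-β, by -0.33 in MDA-MB-231, -0.21 in M1 and -0.09 in M2 on the log2 scale. The number of genes at 0.5 TPM or more moved in the same way: 10144 to 11955 in the TGF-β libraries at 24 h, against 12572 to 13199 in the SB431542 libraries at 24 h, without overlap. The part of this difference in the members' 24 h values was not tested.

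Summed over the members, TPM at 24 h in MDA-MB-231 was 452 ± 123 with TGF-β and 1059 ± 95.4 with SB431542 (SD, n = 3 each). The same sum was 553 ± 61.5 with TGF-β and 724 ± 231 with SB431542 at 8 h, 622 ± 160 and 886 ± 159 at 2 h, and 748 ± 105 in the non-stimulated cells against 848 ± 92.3 in the earliest SB431542 samples (SD, n = 3 in each group). The groups at 24 h lie far apart because the rule asks for it, and those at 0, 2 and 8 h are closer. At 8 h the SB431542 libraries summed to 583, 598 and 990 TPM, against 572, 485 and 604 TPM with TGF-β. The higher SB431542 mean of this sum at 8 h thus rests on replicate 3.

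**Figure D1:**
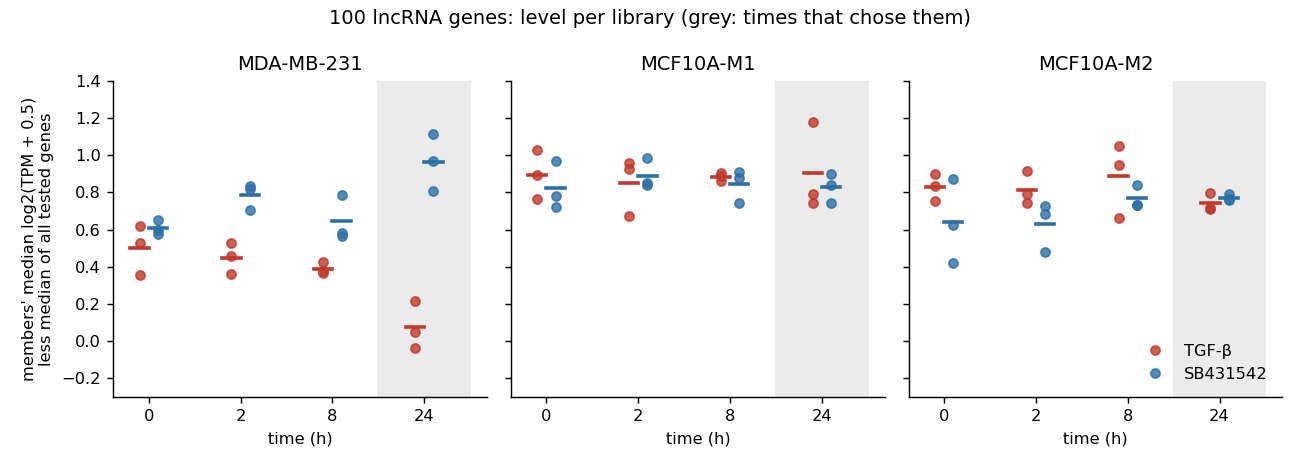
Median log2(TPM + 0.5) of the 100 members less the median of all genes tested in all 3 lines (y axis), for each library (points) and group mean (bars), by time (x axis) in TGF-β (red) and SB431542 (blue). In MDA-MB-231 the TGF-β libraries at 24 h, which with the SB431542 libraries at 24 h chose the members, averaged 0.08 against 0.96 with SB431542; at 2 h the averages were 0.45 and 0.79, and at 8 h 0.39 and 0.65.

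These genes are called repressed for their 24 h difference, which compares 2 treated arms; set against the first time point of each arm, lower levels with TGF-β and higher levels with SB431542 were both found. All 3 TGF-β libraries at 24 h lay below all 3 non-stimulated libraries in 38 of 100 members (19.9% of the genes tested in all 3 lines), and above them in 0 (3.26%). All 3 SB431542 libraries at 24 h lay above all 3 of the earliest SB431542 libraries in 24 members (9.36% of genes), and below them in 2 (14.5%). Both held in 4 members, the first alone in 34, the second alone in 20 and neither in 42. The median of TGF-β at 24 h minus 0 h was -0.63 over the members and -0.28 over all genes, and that of SB431542 at 24 h minus its earliest samples was 0.27 over the members and -0.06 over all genes (log2). These counts use the libraries that chose the members and are a description.

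Member 68, the most abundant with a mean of 139 TPM over the 18 MDA-MB-231 libraries at 0, 2 and 8 h, had 126, 69.7 and 107 TPM with TGF-β at 24 h, against 227, 250 and 158 TPM with SB431542 at 24 h. Its non-stimulated libraries had 123, 170 and 120 TPM and its earliest SB431542 libraries 94.7, 126 and 184 TPM. Both the TGF-β and the SB431542 libraries at 24 h thus overlap the first time point of their own arm. Member 79, the second in abundance, had 9.92, 5.83 and 13.9 TPM with TGF-β at 24 h, against 16.1, 15.0 and 32.9 TPM with SB431542 at 24 h. Its non-stimulated libraries had 33.6, 43.6 and 34.4 TPM, against 51.0, 47.8 and 53.5 TPM in the earliest SB431542 libraries, so it was lower at 24 h than at the start in both arms. Members 57, 53 and 90 follow in abundance; their TGF-β libraries at 24 h ran from 11.1 to 33.9 TPM and their SB431542 libraries at 24 h from 20.2 to 48.2 TPM.

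Member 1 had the most negative D, at -1.97, with 0.464, 0.0422 and 0.442 TPM with TGF-β at 24 h, against 3.86, 2.61 and 3.82 TPM with SB431542 at 24 h. At 8 h its libraries overlapped, with 2.23, 2.09 and 4.10 TPM with TGF-β and 1.68, 1.70 and 7.77 TPM with SB431542. Members 3 and 4 also stood at low levels, at most 0.587 TPM with TGF-β at 24 h. Of the 100 members, 20 averaged under 1 TPM over the MDA-MB-231 libraries at 0, 2 and 8 h, 56 averaged 1 to 10 TPM and 24 averaged 10 TPM or more; the median was 2.83 TPM, against 1.65 TPM over all genes tested in all 3 lines. In 11 members at least 1 TGF-β library at 24 h was listed at 0, and in 1 member all 3 were.

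**Figure D2:**
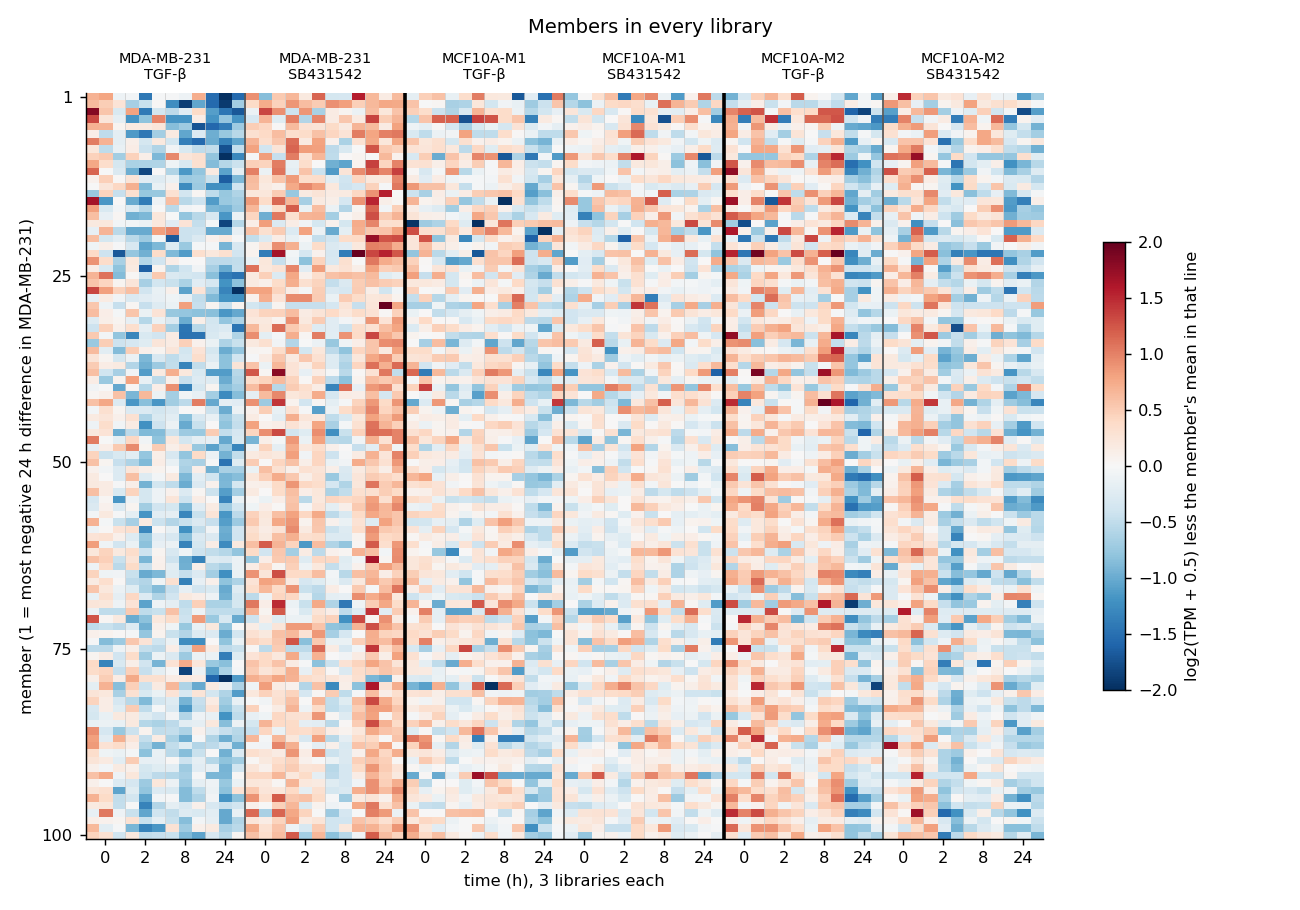
Log2(TPM + 0.5) of each member (rows, 1 at the top) in every library (columns, 3 per time in h), less the member's mean over the 24 libraries of that line, in TGF-β and SB431542 arms of the 3 lines. The 24 h columns of the 3 lines chose the members. In M2 both arms were lower at 24 h than at 0 h in most members. The median changes were -0.80 for TGF-β and -0.71 for SB431542 on the log2 scale. The median log2(TPM + 0.5) of all genes tested in all 3 lines fell in M2 too. Per library it was 1.25 to 1.59 at 0 h and 0.28 to 0.60 at 24 h with TGF-β. With SB431542 it was 1.19 to 1.65 and 0.50 to 0.52.

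The 2 h and 8 h libraries entered the rule only through its filter of 0.5 TPM. The differences it asked for came from the 24 h libraries, so those at 2 and 8 h allow tests. limma was fitted to all 18 MDA-MB-231 libraries at 0, 2 and 8 h over the 15747 genes that reached 0.5 TPM in 3 or more of these libraries, and 99 of the 100 members passed that filter; the other one passed the rule's filter only through the SB431542 libraries at 24 h. A gene was called at a two-sided adjusted p under 0.05 (Benjamini-Hochberg over all genes tested).

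At 8 h, 3 of the 99 members fell with TGF-β against SB431542 (0.26% of all genes tested fell) and 0 rose (0.597% of all genes rose); 13 members (13.1%) had an unadjusted p under 0.05, as did 1256 of all genes tested (7.98%). The median difference was -0.31 over the members and -0.05 over all genes tested (log2), and 79 of the 99 members were negative. All 3 TGF-β libraries lay below all 3 SB431542 libraries in 18 of the 100 members (6.82% of the genes tested in all 3 lines), and above them in 1 (5.64%). Most members therefore overlapped between the arms at 8 h.

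The 3 members that fell at 8 h were numbers 2, 5 and 30. Member 2 (NONHSAG082120.1) had 3.52, 2.09 and 4.14 TPM with TGF-β at 8 h, against 17.5, 16.3 and 12.8 TPM with SB431542 at 8 h. The groups do not overlap, and the log2 difference was -2.13 (SE 0.24, limma adjusted p = 3.34e-05). Its TGF-β arm ran from 14.2, 13.0 and 11.1 TPM at 0 h through 5.49, 6.54 and 9.23 TPM at 2 h to 2.73, 2.04 and 5.40 TPM at 24 h. All libraries at 2, 8 and 24 h lay below all at 0 h, and those at 8 and 24 h overlap each other. Its SB431542 arm had 11.9, 15.4 and 12.6 TPM in the earliest samples, 17.0, 14.1 and 13.1 TPM at 2 h and 14.5, 15.7 and 15.7 TPM at 24 h, a narrow band throughout.

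Member 5 (NONHSAG058130.2) had 7.38, 8.21 and 3.83 TPM with TGF-β at 8 h, against 18.1, 15.8 and 22.3 TPM with SB431542 at 8 h. The difference was -1.51 on the log2 scale (SE 0.25, limma adjusted p = 0.00257), again without overlap. At 2 h it had 15.7, 15.6 and 16.4 TPM with TGF-β and 21.7, 16.9 and 16.6 TPM with SB431542, apart by a narrow margin (log2 difference -0.19, SE 0.25, limma adjusted p = 0.806). At 24 h its TGF-β libraries had 4.30, 4.89 and 8.25 TPM, close to those at 8 h.

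Member 30 had 9.55, 9.48 and 9.19 TPM with TGF-β at 8 h, against 22.1, 19.3 and 21.6 TPM with SB431542 at 8 h, with a log2 difference of -1.12 (SE 0.21, limma adjusted p = 0.0078). The TGF-β libraries were nearly equal and all lay below the SB431542 libraries. When SB431542 replicate 1 was left out the adjusted p was 0.0526, so 2 members were called without that library. At 2 h its groups overlapped, with 24.5, 15.0 and 20.0 TPM with TGF-β and 25.7, 18.6 and 20.0 TPM with SB431542. The identifier of member 30 carries the number that follows that of member 5; whether they are neighbouring or overlapping transcripts is not given in the files, and reads of overlapping genes would be counted in both or divided between them.

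Within the TGF-β arm of MDA-MB-231, 4 members fell at 8 h against 0 h (0.629% of all genes tested fell) and 0 rose (0.54%). This comparison shares the 8 h TGF-β libraries with the one above, so its calls are not separate evidence. The log2 differences were -1.86 for member 2 (SE 0.24, limma adjusted p = 0.000215), -1.57 for member 5 (SE 0.25, adjusted p = 0.00215), -1.60 for member 7 (SE 0.36, adjusted p = 0.0284) and -1.02 for member 30 (SE 0.21, adjusted p = 0.0163). Member 7 had 3.52, 1.50 and 1.27 TPM with TGF-β at 8 h, against 10.0, 7.85 and 4.01 TPM at 0 h. Calls dropped to 2 without TGF-β replicate 2 or 3 at 8 h or without replicate 1 at 0 h. The median was -0.36 over the members and -0.18 over all genes tested. In the SB431542 arm at 8 h against its earliest samples, 0 members fell (0.0635% of all genes tested) and 0 rose (0.00635%), and 18 (18.2%) had an unadjusted p under 0.05 in limma, as did 2416 of all genes tested (15.3%). For members 2, 5 and 30 the SB431542 differences were 0.21, 0.10 and -0.06 on the log2 scale, small beside their standard errors of 0.24, 0.25 and 0.21.

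**Figure D3:**
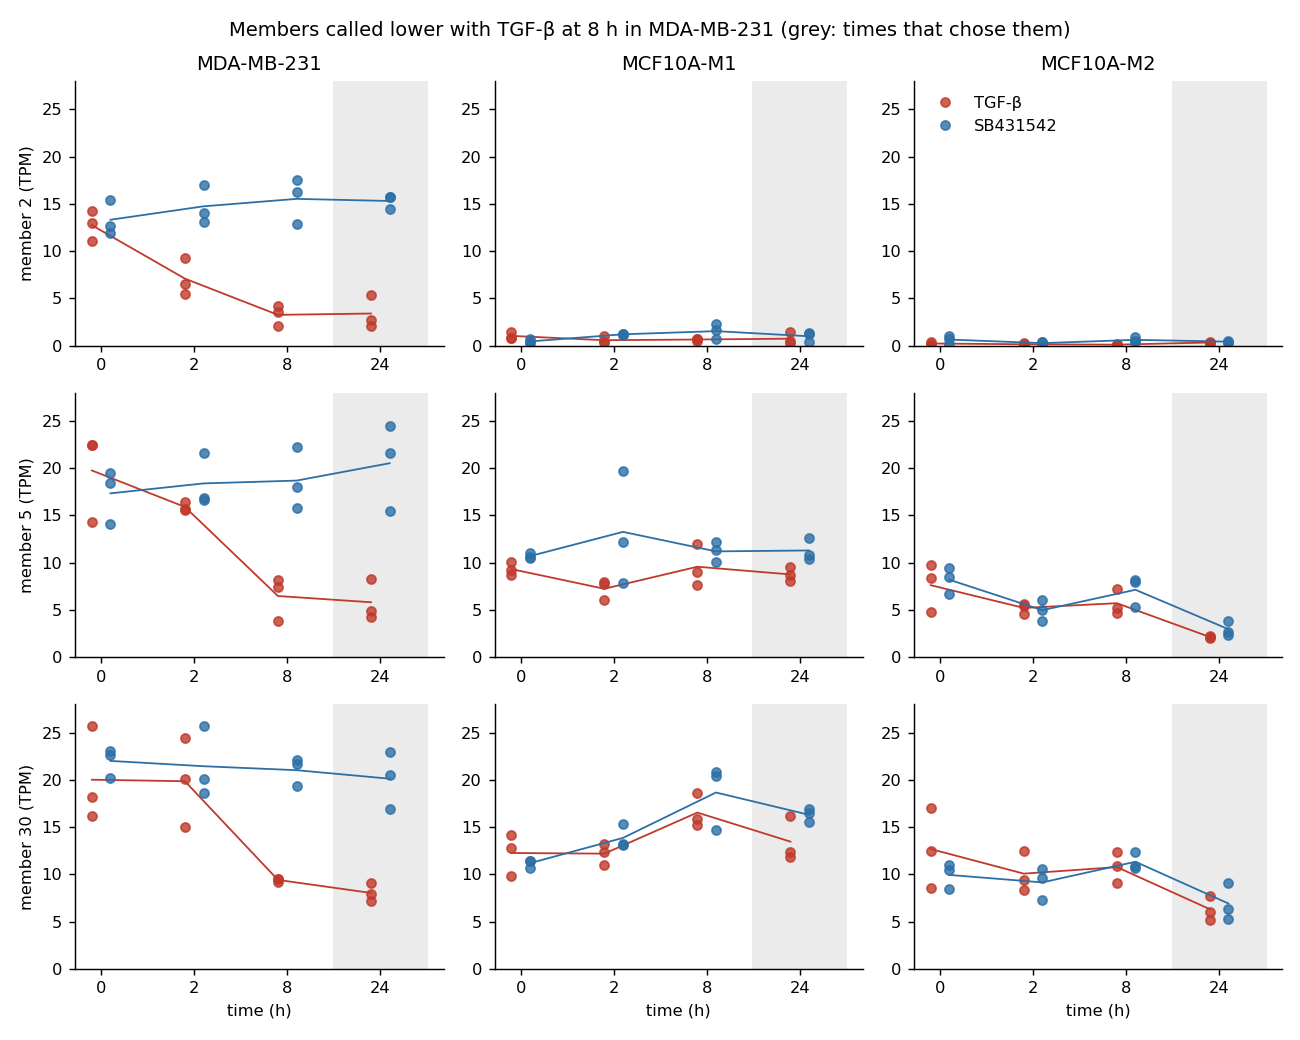
TPM of members 2, 5 and 30 (rows) in each library (points; lines join group means) by time in the TGF-β arm (red) and the SB431542 arm (blue) of the 3 lines (columns), all on 1 scale. In MDA-MB-231 at 8 h the TGF-β libraries lie at 2.09 to 9.55 TPM and the SB431542 libraries at 12.8 to 22.3 TPM; in M1 and M2 at 8 h the arms overlap for each of the 3 members except member 2 in M2, with 0.0515 to 0.169 TPM with TGF-β and 0.423 to 0.901 TPM with SB431542.

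At 2 h in MDA-MB-231 the whole list was further from the other genes than at 8 h. All 3 TGF-β libraries lay below all 3 SB431542 libraries in 34 members (15% of the genes tested in all 3 lines), and above them in 0 (3.65%). The median difference was -0.60 over the 99 members tested and -0.15 over all genes tested, and 91 of the 99 were negative. In the test 3 members fell (0.597% of all genes tested) and 0 rose (0.413%), while 39 (39.4%) had an unadjusted p under 0.05, as did 2331 of all genes tested (14.8%). The number that fell depends on the setting: 0 with no filter (0.111% of all genes tested), 6 with a mean of at least 1 TPM (1.15%), 11 with median-of-ratios scaling (1.38%), 16 with the 10 most abundant genes kept out of the totals (1.88%) and 8 with the replicate number as a block (0.965%).

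Member 2 was 1 of the 3, with a log2 difference of -1.03 (SE 0.24, limma adjusted p = 0.0471). Member 6 had 0.343, 0.191 and 0.652 TPM with TGF-β at 2 h, against 1.85, 1.90 and 2.29 TPM with SB431542 (log2 difference -1.52, SE 0.32, adjusted p = 0.0246). Member 8 had 8.28, 5.42 and 4.75 TPM with TGF-β at 2 h, against 17.2, 13.7 and 13.5 TPM with SB431542 (log2 difference -1.23, SE 0.29, adjusted p = 0.0444). For member 8 the SB431542 libraries stand high at 2 h and at 24 h, with 18.4, 10.9 and 10.5 TPM, and not at 8 h, with 5.05, 5.90 and 7.41 TPM. The 2 h calls were fragile: each of the 3 members was called in 1 of the 6 fits that leave out 1 library, and between 0 and 2 members were called in those fits, with 0 without TGF-β replicate 2, SB431542 replicate 1 or SB431542 replicate 3. The number of genes at 0.5 TPM or more at 2 h was 10455 to 11954 with TGF-β and 11828 to 13125 with SB431542, and at 8 h 10744 to 12055 and 11042 to 13376; the part of this in the members' differences was not tested.

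At the first time point 0 genes passed the test between the arms, and 7 did with no filter. The earliest SB431542 samples carry a treatment field of 0.5 h and are not shown to be untreated. The non-stimulated libraries lay below the earliest SB431542 libraries in 14 members (9.6% of the genes tested in all 3 lines) and above them in 0 (1.21%), and the median was -0.27 over the 99 members tested and -0.14 over all genes tested. In limma 0 members were called at this time (0% of all genes tested were called in either direction), and 7 (7.07%) had an unadjusted p under 0.05, as did 777 of all genes tested (4.93%). The part of these values in the differences at 2 and 8 h was not tested.

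The difference between arms is given here by the members' level, with no test. At 8 h the median of the members less that of all genes of the same level was -0.01 for the 20 members under 1 TPM, -0.23 for the 56 at 1 to 10 TPM and -0.37 for the 24 at 10 TPM or more. At 2 h the corresponding values were -0.16, -0.43 and -0.57. At 24 h the order was the other way, with -0.94, -0.77 and -0.68 from low to high level, among libraries that chose the members.

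**Figure D4:**
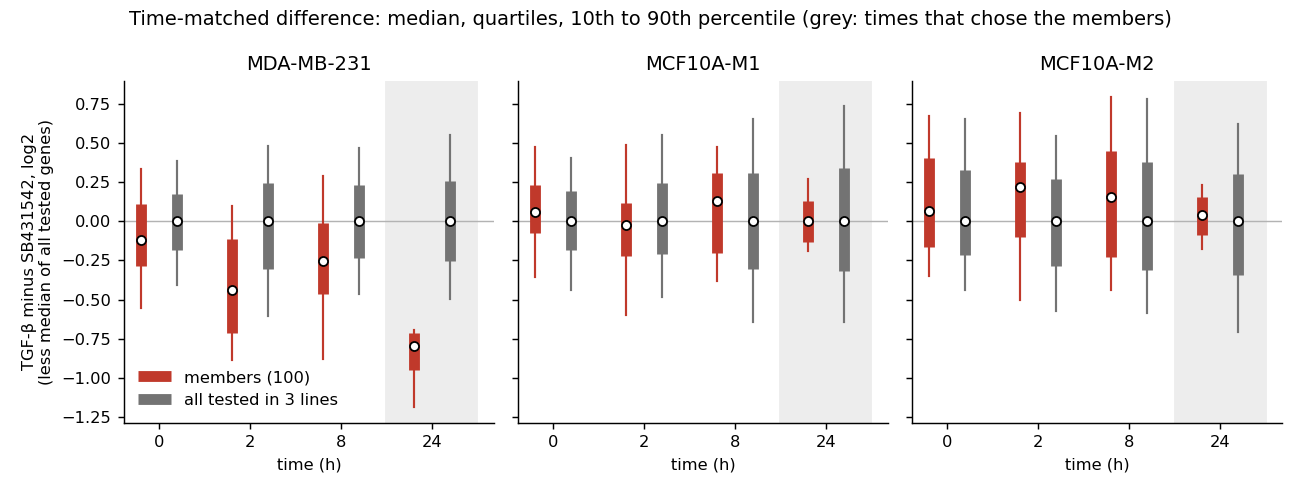
Difference of TGF-β minus SB431542 at the same time (log2, y axis), less its median over all genes tested in all 3 lines, for the 100 members (red) and for all those genes (grey); circles are medians, thick bars quartiles and thin lines the 10th to 90th percentile, by time (x axis). In MDA-MB-231 the members' median was -0.12 at 0 h, -0.44 at 2 h and -0.26 at 8 h; in M1 it was 0.13 and in M2 0.15 at 8 h.

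The same test at 8 h was made in M1 and M2. In M1 0 of the 100 members fell (2.82% of all genes tested) and 2 rose (5.62%), numbers 54 and 82, by 0.66 (SE 0.12, limma adjusted p = 0.00161) and 0.60 (SE 0.17, adjusted p = 0.0376) on the log2 scale. In M2 0 fell (0.565%) and 4 rose (4.12%), members 22, 42, 50 and 65, by 2.85, 2.02, 0.95 and 1.46 (limma adjusted p = 0.0241, 0.0453, 0.0287 and 0.0268). With median-of-ratios scaling 3 members fell (5.21% of all genes tested) and 9 rose (6.20%) in M2. With the 10 most abundant genes kept out of the totals 1 fell (4.48%) and 1 rose (3.40%) in M1. Member 2 (NONHSAG082120.1) had 0.0515, 0.169 and 0.0639 TPM with TGF-β at 8 h in M2, against 0.901, 0.423 and 0.500 TPM with SB431542. The arms do not overlap, and the log2 difference of -0.88 (SE 0.33, limma adjusted p = 0.146) did not pass the test. The members' medians were 0.16 in M1, with 0.04 over all genes tested, and 0.37 in M2, with 0.23 over all genes tested. All 3 TGF-β libraries lay below all 3 SB431542 libraries in 3 members in M1 (11.6% of the genes tested in all 3 lines) and in 4 members in M2 (6.71%), and above them in 19 members in M1 (16.9%) and in 27 members in M2 (21%). Without 1 library the members called were 1 to 5 in M1 and 0 to 8 in M2, with 8 without TGF-β replicate 1 of M2. The rule asked for a small difference at 24 h in these lines and used their 8 h libraries only in its filter of 0.5 TPM. On simulated data the M2 test recovered fewer changes of a set size than the MDA-MB-231 test, as given in the processing section.

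Whether the 8 h difference itself was unequal between lines was tested as an interaction in a joint fit of 2 lines. Against M1, 3 members had a more negative difference in MDA-MB-231 (2.18% of all genes tested) and 0 a less negative one (0.982%). They were member 2, by -1.38 (SE 0.39, limma adjusted p = 0.0471), member 5, by -1.28 (SE 0.35, adjusted p = 0.0403), and member 30, by -0.96 (SE 0.25, adjusted p = 0.0306). In M1 alone the differences of members 2, 5 and 30 were -0.75, -0.23 and -0.16, and none of them passed the test there. Member 2 averaged 0.640 TPM with TGF-β and 1.53 TPM with SB431542 at 8 h in M1. At such levels the log2(TPM + 0.5) scale understates its difference in M1. Over the 8 other settings its interaction ran from -1.43 to -1.26, and the part of the scale in it was not tested. Of 8 other settings, member 2 was called in 3, member 5 in 5 and member 30 in 8. These interactions share the MDA-MB-231 libraries with the 8 h result above. They rest on single libraries: leaving out any 1 of the 12 gave 0 to 2 calls, with 0 without M1 TGF-β replicate 3.

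Against M2, 3 members had a more negative difference in MDA-MB-231 (1.78% of all genes tested) and 0 a less negative one (0.358%). They were member 50, by -1.60 (SE 0.39, limma adjusted p = 0.0223), member 58, by -1.55 (SE 0.42, adjusted p = 0.0463), and member 65, by -1.78 (SE 0.48, adjusted p = 0.0406). Member 65 had 0.673, 0.514 and 0.645 TPM with TGF-β at 8 h in MDA-MB-231, against 0.837, 0.446 and 1.61 TPM with SB431542, and 1.80, 3.41 and 3.35 TPM with TGF-β in M2, against 0.658, 0.468 and 0.985 TPM with SB431542. The M2 arms stand apart and the MDA-MB-231 arms overlap, so for this member the interaction lies mostly in M2. Members 2, 5 and 30 had interactions of -1.25, -1.22 and -1.04 against M2, with adjusted p of 0.101, 0.0858 and 0.0806, which missed the threshold. Member 2 averaged 0.0948 TPM with TGF-β and 0.608 TPM with SB431542 at 8 h in M2, where the scale also understates its difference. In MDA-MB-231 it averaged 3.25 TPM with TGF-β and 15.5 TPM with SB431542 at 8 h. That is a smaller relative fall in mean TPM than these low M2 values show. Leaving out 1 library gave 0 to 4 calls, with 0 without replicate 2 or 3 of TGF-β in MDA-MB-231 or M2, replicate 3 of SB431542 in MDA-MB-231 or replicate 1 of SB431542 in M2. Over the list the median interaction was -0.46 against M1, with -0.09 over all genes tested, and -0.61 against M2, with -0.25 over all genes tested. The share of members called is thus close to that of all genes, although the medians lie apart.

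At 2 h, 3 members had a more negative difference in MDA-MB-231 than in M1 (0.616% of all genes tested) and 0 a less negative one (0.154%), and 18 members had a more negative difference than in M2 (3.15%) and 0 a less negative one (0.194%). In M2 at 2 h the members were higher with TGF-β, by a median of 0.51, and so were all genes tested in all 3 lines, by 0.29. The called members with the largest interactions against M2 were number 72, by -2.43 (SE 0.46, limma adjusted p = 0.00344), number 97, by -2.36 (SE 0.64, adjusted p = 0.0374), and number 8, by -2.20 (SE 0.40, adjusted p = 0.0024). Member 72 had 7.22, 4.20 and 9.32 TPM with TGF-β at 2 h in MDA-MB-231, against 16.2, 16.1 and 13.1 TPM with SB431542, and 32.1, 19.9 and 18.7 TPM with TGF-β in M2, against 13.2, 8.09 and 6.80 TPM with SB431542. The arms were separate in both lines and in opposite order. The M2 samples given SB431542 for 2 h held 10335 to 13996 genes at 0.5 TPM or more, a wider spread than the 12627 to 13292 with TGF-β; its part in these interactions was not tested. Without 1 library the number of members called against M2 ran from 4, without TGF-β replicate 2 of MDA-MB-231 or SB431542 replicate 3 of M2, to 43, without SB431542 replicate 1 of M2. Against M1 the number ran from 0 to 4, with 0 without any 1 of 6 libraries. The share of all genes called in those fits is not given here, so these ranges do not set the members apart from all genes.

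As a comparison, 67 genes had a D of -0.6 or less and no overlap at 24 h in each of the 3 lines. At 8 h in MDA-MB-231 these had a median difference of -0.49, against -0.31 for the members, and all 3 TGF-β libraries lay below all 3 SB431542 libraries in 25 of them, against 18 of the 100 members and 6.82% of the genes tested in all 3 lines. At 2 h the order was the other way, with -0.47 for the 67 genes and -0.60 for the members. In M1 and M2 at 8 h the 67 genes had medians of -0.74 and -0.53. The difference between the 2 lists was not tested.

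Before stimulation most members stood at a lower level in MDA-MB-231 than in M1. The non-stimulated level was lower in MDA-MB-231 for 59 members (39.4% of all genes tested) and higher for 9 (9.71%) in limma. Of the genes tested in all 3 lines, 43.1% were lower and 7.90% higher. With a mean of at least 1 TPM, 58 of 91 members were lower, against 52.8% of all genes tested. The median difference of MDA-MB-231 minus M1 was -1.15 over the members and -0.50 over all genes tested (log2). Against M2, 30 members were lower (23.6%) and 13 higher (14%), with a median of -0.53 over the members and -0.20 over all genes tested. Of the genes tested in all 3 lines, 22.5% were lower than in M2 and 10.7% higher. With a mean of at least 1 TPM, 30 of 85 members were lower than in M2, against 30.4% of all genes tested. This direction depends on the scaling: when the 10 most abundant genes were kept out of the library totals, 6 members were lower (10.6% of all genes tested) and 19 higher (18.6%) than in M2, and the median was 0.00 over the members and 0.18 over all genes. Against M1, 46 were lower (21.5%) and 14 higher (14.8%) under that scaling. With median-of-ratios scaling 46 were lower (24.9%) and 16 higher (20.3%) than in M1, and 28 lower (20.7%) and 19 higher (20.9%) than in M2. Among the 3 lines the mean non-stimulated TPM was lowest in MDA-MB-231 for 64 members (57.1% of genes tested in all 3 lines) and highest there for 19 (21.2%).

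The members that fell at 8 h belong to the smaller group. The non-stimulated level of member 2 averaged 12.7 ± 1.58 TPM in MDA-MB-231, 1.03 ± 0.358 TPM in M1 and 0.219 ± 0.155 TPM in M2 (SD, n = 3 each), with log2 differences of 3.13 against M1 (SE 0.28, limma adjusted p = 8.93e-11) and 4.22 against M2 (SE 0.28, adjusted p = 9.78e-14). Member 2 was thus near the pseudocount of 0.5 TPM in M1 and M2, where the log2(TPM + 0.5) scale understates differences. Members 5 and 30 were higher by 1.02 and 0.67 against M1 (limma adjusted p = 0.0012 and 0.00257) and by 1.35 and 0.66 against M2 (adjusted p = 0.000138 and 0.0189). They were well above the low range in each line, with 8.69 to 10.0 and 9.81 to 14.2 TPM in M1 and 4.77 to 9.71 and 8.56 to 17.0 TPM in M2. Member 68 had 123, 170 and 120 TPM in MDA-MB-231, 30.7, 35.8 and 38.5 TPM in M1 and 66.6, 71.7 and 79.4 TPM in M2, with a log2 difference of 1.95 against M1 (SE 0.27, limma adjusted p = 6.58e-07).

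**Figure D5:**
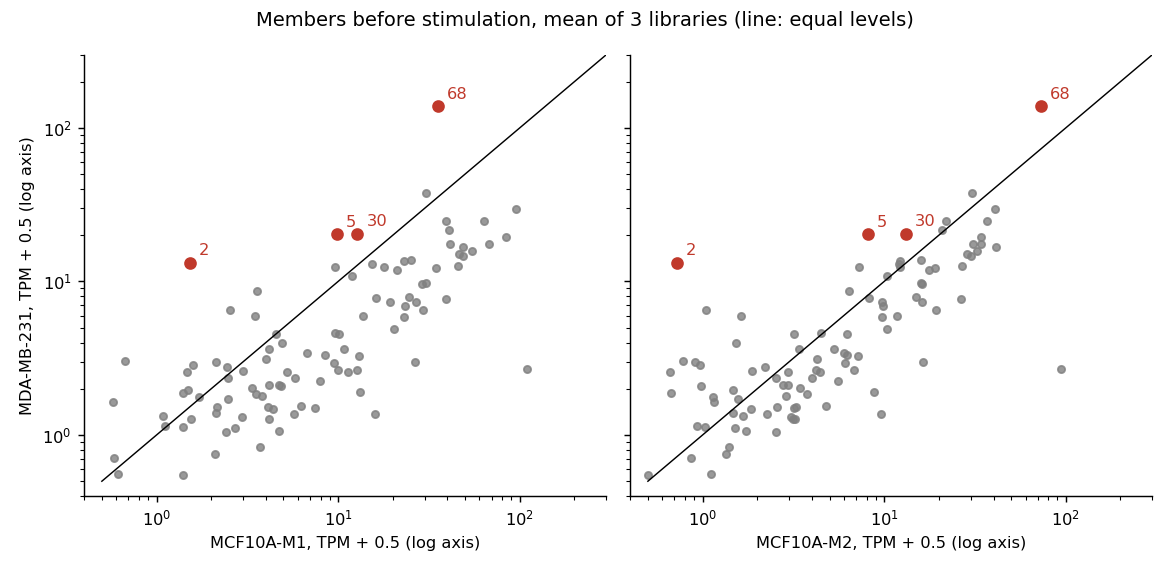
Mean TPM + 0.5 of each member in non-stimulated cells (3 libraries per line, both axes logarithmic), MDA-MB-231 on the y axis against M1 (left) and M2 (right) on the x axis; the line marks equal levels and members 2, 5, 30 and 68 are in red. Most points lie below the line for M1, where 59 members were lower in MDA-MB-231 (39.4% of all genes tested) and 9 higher (9.71%). The median over all genes tested was -0.50 (log2). With median-of-ratios scaling 46 members were lower (24.9%), and 46 with the 10 most abundant genes out of the library totals (21.5%).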

How the data were processed

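Total RNA was isolated with TRIzol and sequenced, per the labels' protocols. FastQC, cutadapt 2.10, HISAT2 2.2.0, StringTie 1.3.6 and GRCh38 are named in the submitters' processing notes; the sources used here give no parameters, annotation release or strand setting, so overlapping genes, antisense ones included, may share reads. The authors deposited TPM values of lncRNA genes, scaled over those genes alone, so a few abundant genes shift all others. TPM keeps no read depth, so no counting error is given. Of the columns of sample values, 0 were unused and 0 were identical to another. All 72 listed samples were used, although the design text counts 36. Its triplicates are termed biological; if any were not cultured separately, the spread behind the p-values is partly technical.

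The members, lists and tests were chosen with earlier results of these data known. Log2(TPM + 0.5) was fitted with limma 3.58.1 (lmFit, contrasts.fit, eBayes with trend; R 4.3.3, data.table version 1.17.8), in 1 fit per line of its 18 libraries at 0, 2 and 8 h and in joint fits of 36 libraries for 2 lines, with genes that reached 0.5 TPM in 3 or more libraries. Fold changes on this scale understate those of low genes. The 24 h libraries stayed out because the rule took its differences from them. Tables and plots used Python 3.11.15, pandas 2.3.3 and matplotlib 3.10.9. The 0 h comparison, the 2 h interactions and the split by level were added after seeing the data. The fit was tested on simulated data, and the recovery required of it was lowered after a first run. The changed genes were all lowered and came only from those with a mean of at least 1 TPM in the fit. Recovery below that level was not simulated, and 20 members averaged under 1 TPM in MDA-MB-231 at 0, 2 and 8 h. At 8 h a log2 difference of 1 was recovered in 32.8% of changed genes in MDA-MB-231, 34.3% in M1 and 1.49% in M2. For the interactions it was 8.96% against M1 and 2.99% against M2. At a log2 difference of 2 these were 80.3%, 80.3%, 54.5%, 59.1% and 34.8%. A lack of calls in M2 or in the interactions therefore does not show that a difference is absent.

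Same-numbered TGF-β and SB431542 libraries of MDA-MB-231 deviated together at 2 h (correlations 0.131, 0.105 and 0.105), so the blocked count is given there; the labels do not say what a number shares.

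Members described singly are 1 to 5, the 5 of highest mean TPM and those called at 8 h in MDA-MB-231; others were chosen after their values were seen. The rule for identifiers, at most 2, was member 1 and the most abundant; those of members 2 and 5 are printed in their place, also chosen after their values were seen. Of the identifiers, 0 matched the RefSeq or GENCODE tables used. Pathway gene lists could not be applied without symbols.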

Additional observations from a re-analysis of the deposited data

Results flagged for a closer look

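These results were singled out because the TGF-β minus SB431542 difference was unequal between lines by a test of the difference itself (limma interaction, adjusted over all genes). At 8 h, 3 members had a more negative difference in MDA-MB-231 than in M1: number 2 by -1.378, number 5 by -1.276 and number 30 by -0.9588 (log2); 2.18% of all genes tested were so called, and leaving out 1 library gave 0 to 2 members. Member 2 was near the pseudocount of 0.5 TPM in M1, where the scale understates its difference. Against M2 at 8 h there were also 3, number 50 by -1.597, number 58 by -1.548 and number 65 by -1.784 (1.78% of all genes, and 0 to 4 members without 1 library). For member 65 the M2 arms stood apart and the MDA-MB-231 arms overlapped, so its interaction lies mostly in M2. At 8 h the share of members called was close to that of all genes against either line. At 2 h, 3 members had a more negative difference in MDA-MB-231 than in M1, number 36 by -1.383, number 60 by -1.095 and number 72 by -1.601 (0.616% of all genes, and 0 to 4 members without 1 library). Against M2 at 2 h there were 18, of which number 72 by -2.431, number 97 by -2.358 and number 8 by -2.198 were the largest (3.15% of all genes, and 4 to 43 members without 1 library). The shares of all genes called without 1 library are not given here.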

How the results depend on the processing

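The 3 members called at 8 h in MDA-MB-231 remained 3 under all 8 other settings, where 0.108% to 0.688% of all genes tested were lower. They were 2 to 3 without 1 library. At 2 h, 0 were called with no filter (0.111% of all genes tested were lower) and 6 with a mean of at least 1 TPM (1.15%). There were 11 with median-of-ratios scaling (1.38%) and 16 with the 10 most abundant genes out of the library totals (1.88%). The replicate block gave 8 (0.965%), and there were 0 to 2 without 1 library. TGF-β at 8 h against 0 h gave 10, all lower, with the 10 most abundant genes out, where 2.40% of all genes tested were lower. It gave 2 to 5 without 1 library, and SB431542 at 8 h against its earliest samples gave 0 to 1. At 8 h in M1 there was 1 call with no filter (4.13% of all genes tested were called), 1 with the 24 h libraries in the fit (8.30%) and 1 to 5 without 1 library. In M2 there was 1 with no filter (1.73% of all genes tested) and 12 with median-of-ratios scaling (11.4%). There was 1 with the 10 most abundant genes out (2.30%), 7 with the 24 h libraries (6.92%) and 0 to 8 without 1 library. The 8 h interaction against M1 gave 1 with a pseudocount of 0.1 (2.18% of all genes tested were called) and 1 with no filter (1.72%). The 8 h interaction against M2 gave 1 with a pseudocount of 0.1 (1.19%) and 1 with no filter (0.991%). It gave 0 with the 10 most abundant genes out (0.969%). Without 1 library there were 0 to 2 against M1 and 0 to 4 against M2. At 2 h the interaction against M1 gave 1 with a pseudocount of 0.1 (0.462% of all genes tested) and 1 with no filter (0.447%). There were 5 with median-of-ratios scaling (2.27%), 11 with the 10 most abundant genes out (1.39%) and 0 to 4 without 1 library. The 2 h interaction against M2 gave 9 with no filter (1.06% of all genes tested), 8 with the 10 most abundant genes out (1.00%) and 4 to 43 without 1 library. The 0 h level against M2 gave 25 with the 10 most abundant genes out, where 29.2% of all genes tested were called. Of the members, 66 met the rule with a pseudocount of 0.1, 52 with a mean of at least 1 TPM, 56 with median-of-ratios scaling, 61 with the 10 most abundant genes out and 65 to 96 without 1 library. The cause of these changes was not tested, and the shares of all genes in the fits without 1 library are not given here.

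Member 1 at 8 h in MDA-MB-231 ran from -0.42 to 0.55 without 1 library (0.55 without SB431542 replicate 3, 0.02 without TGF-β replicate 1, 0.06 without TGF-β replicate 2). Member 3 ran from -0.41 to a positive value (0.045 without TGF-β replicate 1), member 68 from -0.40 to 0.16 and member 90 from -0.36 to 0.029, the last value of both without SB431542 replicate 3; none of these passed the test. Over all genes, calls at 8 h in MDA-MB-231 were 135, against 299 with median-of-ratios scaling and 294 with the 10 most abundant genes out; at 2 h they were 159, against 435 and 540, and at 8 h against 0 h 184, against 483 and 708. The 0 h median of all genes against M1 was -0.50, and -0.09 with median-of-ratios scaling. The replicate number, which is not shown to pair samples at other times, moved no total of members called by over 1.5 times as a block, outside the 2 h result in MDA-MB-231; in M1 at 8 h it gave 3 calls, 1 of them lower (2.72% of all genes tested), against 2 with 0 lower. TPM values keep no depth, so the error of low values is unknown.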
